A study of Homo sapiens with 14 samples.

Results

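The genes described here encode the protein factors that start and carry on translation, taken as every NM_ transcript window of the table whose symbol begins EIF1 to EIF6, EEF1 or EEF2. The rule gave 68 of the 28159 genes in the table, 54 initiation factor genes (symbol starting EIF) and 14 elongation factor genes (symbol starting EEF). EIF6 and EEF1AKMT1 were listed under NR_ accessions and so fell outside the rule. Their values stand at the end.

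Initiation factors bring the small ribosomal subunit to the cap of an mRNA and find its start codon. The eIF4 proteins bind and unwind the capped end, eIF3 is a scaffold on the small subunit, eIF2 carries the initiator tRNA and eIF2B recharges eIF2. Elongation factors then deliver each aminoacyl-tRNA (the eEF1 complex) and move the ribosome along (eEF2). In mammals many genes of this machinery have mRNAs that begin with a C followed by pyrimidines, the 5′ terminal oligopyrimidine or TOP start, through which mTORC1 controls their translation.

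RNA polymerase II phosphorylated at Ser5, the form found at promoters and in early transcription, was measured by ChIP-seq with antibody 3E8 in wild-type HCT116, a human colorectal carcinoma line. All cells were electroporated, and the groups were Nutlin3a with peptide (1 ChIP library), DMSO with peptide (1), Nutlin3a without peptide (2) and DMSO without peptide (2), each with 2 inputs, which are sheared chromatin sequenced without antibody. Nutlin3a, given at 10 µM for 3 h, frees p53 from MDM2. DMSO, the solvent, was at 0.1%. The bivalent stapled peptide, meant to block the contact of p53 with Mediator, was electroporated at 10 µM with 200 nM more in the medium. The labels do not say what separates replicates, so p-values may measure only technical spread.

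Reads were counted in 1 window of 1000 bp per gene, so levels in CPM (counts for every 1000000 in the library, its size adjusted by TMM) are per equal length. ChIP libraries held 1290223 to 2240951 counts and inputs 161719 to 359276. The 68 genes took 0.602% to 0.687% of the counts of each ChIP library and 0.331% to 0.381% of those of each input. Of the colon epithelial markers, 4 of the 6 tested were higher in ChIP than in input (EPCAM, KRT8, KRT18 and KRT19). CDH1 and CDX2, the others tested, had log2 ratios over input of −0.54 and −0.16 and were not called. CDX1 and VIL1 were near background (means 6.21 and 7.80 CPM). Of the blood, mesenchymal and silent tissue markers only TWIST1 and PDGFRB had enough input counts to be tested, and neither was higher than input. PTPRC, DCN and ALB were at 0 in at least 1 library. Nutlin3a replicate 1 had the fewest ChIP counts. Summed over the 5 blood markers it had 55.1 CPM, where the other ChIP libraries had 21.7 to 29.4 CPM. Over the 4 mesenchymal markers it had 39.0 CPM, against 10.6 to 34.2 CPM in the others. Over the 6 silent tissue genes it had 35.9 CPM, within the 19.8 to 37.0 CPM of the others. Its part in the results below was not tested beyond leaving that library out. At 7 p53 responder genes Nutlin3a was higher than DMSO in both replicates, with a median log2 fold change of 1.47, and with peptide their median log2 ratio was 1.37.

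Promoter sequences from RefSeq (GRCh38.p14) were held for 54 of the 68 genes, each with 250 bases before and 50 from the annotated start. The letters TATAA on the gene's strand within 50 bases before the start occurred in 6 of these 54 (11.1%), against 5.12% of 27305 promoters. They are shown because these 6 genes include the 5 with the highest ratio of ChIP over input. Each stretch covers 70 bases before the start and the first 20 from it, 5′ to 3′ on the gene's strand, with TATAA in capitals and, where the first base is a C followed by at least 4 pyrimidines, that pyrimidine run in capitals too. The stretches are EEF1A1 at chr6:73521013-73521102 (minus strand), EEF2 at chr19:3985444-3985533 (minus strand), EIF1 at chr17:41688815-41688904 (plus strand), EIF4A1 at chr17:7572755-7572844 (plus strand), EIF4A2 at chr3:186783507-186783596 (plus strand) and EIF4B at chr12:53006386-53006475 (plus strand).
EEF1A1: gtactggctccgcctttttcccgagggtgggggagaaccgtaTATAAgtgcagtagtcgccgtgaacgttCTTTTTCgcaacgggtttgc
EEF2: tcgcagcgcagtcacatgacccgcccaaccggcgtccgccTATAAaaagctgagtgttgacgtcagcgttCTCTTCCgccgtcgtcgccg
EIF1: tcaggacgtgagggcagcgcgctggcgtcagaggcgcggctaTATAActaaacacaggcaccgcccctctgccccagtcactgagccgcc
EIF4A1: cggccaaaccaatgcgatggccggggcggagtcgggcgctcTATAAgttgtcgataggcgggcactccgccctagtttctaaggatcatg
EIF4A2: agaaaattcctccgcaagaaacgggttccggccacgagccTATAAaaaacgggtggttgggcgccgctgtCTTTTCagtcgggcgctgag
EIF4B: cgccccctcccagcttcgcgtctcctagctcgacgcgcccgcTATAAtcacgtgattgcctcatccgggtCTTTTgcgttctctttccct
TATAA began 28 to 30 bases before the start in all 6. EEF1A1, EEF2, EIF4A2 and EIF4B also had a TOP-like start.

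A TOP-like start, C then 4 pyrimidines at the annotated first base, occurred in 12 of the 54 genes (22.2%), against 4.04% of all promoters. The other 8 were EIF2A, EIF2D, EIF2S3, EIF2S3B, EIF3D, EIF3F, EIF3K and EIF3M. EIF2S3 and its close copy EIF2S3B are shown with EIF3D and EIF3M, with the pyrimidine run in capitals. They lie at EIF2S3 at chrX:24054886-24054975 (plus strand), EIF2S3B at chr12:10505820-10505909 (plus strand), EIF3D at chr22:36529147-36529236 (minus strand) and EIF3M at chr11:32583761-32583850 (plus strand).
EIF2S3: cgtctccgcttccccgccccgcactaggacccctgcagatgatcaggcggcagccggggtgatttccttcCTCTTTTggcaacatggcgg
EIF2S3B: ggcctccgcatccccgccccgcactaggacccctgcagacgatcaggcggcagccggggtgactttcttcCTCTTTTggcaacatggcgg
EIF3D: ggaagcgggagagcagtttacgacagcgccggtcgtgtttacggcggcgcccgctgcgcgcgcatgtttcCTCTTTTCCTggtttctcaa
EIF3M: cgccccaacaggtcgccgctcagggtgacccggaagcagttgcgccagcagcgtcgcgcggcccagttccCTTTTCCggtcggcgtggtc
The EIF2S3 and EIF2S3B promoters were identical at 282 of 300 bases (94%). For contrast, EIF4G1 and EIF4E, which encode the scaffold and the cap-binding subunit of eIF4F, held neither string and have no capitals. They lie at EIF4G1 at chr3:184314536-184314625 (plus strand) and EIF4E at chr4:98929114-98929203 (minus strand).
EIF4G1: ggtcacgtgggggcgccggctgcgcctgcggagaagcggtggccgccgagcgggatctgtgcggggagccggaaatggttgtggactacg
EIF4E: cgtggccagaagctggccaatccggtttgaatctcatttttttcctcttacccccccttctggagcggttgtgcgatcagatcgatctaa
In all 10 motifs were searched, chosen with the values known. On both strands of the 300 bases, CACGTG (the E-box of MYC and related factors) was in 15 genes (27.8%, against 7.43% of promoters), CCGGAAGT (an ETS-type site) in 8 (14.8%, against 4.43%), AAGATGGCG (the YY1 string) in 3 (5.56%, against 1.85%), GGGCGG (the GC box) in 41 (75.9%, against 44.6%) and CCAAT in 22 (40.7%, against 35.7%). The p53 consensus, a pair of half-sites 0 to 13 bases apart, matched in 0 of the 54 and in 0.0293% of promoters. The palindromes of NRF1 and of ZBTB33 (Kaiso) also matched in 0 of the 54, against 1.36% and 0.469% of promoters. The 27305 promoters are not limited to NM_ genes, as the rule is, so these shares have unlike bases. Among NM_ genes tested over input, GGGCGG was in 6870 and absent from 2835, and CCAAT in 3545 and absent from 6160. CACGTG was in 993 of them and absent from 8712, CCGGAAGT in 843 and absent from 8862. AAGATGGCG was in 369 and absent from 9336, TATAA in 312 and absent from 9393. A TOP-like start was in 511 and absent from 9194. A match is a string of letters and not a bound site.

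Ser5-phosphorylated polymerase was higher in ChIP than in input at 35 of the 65 genes tested and lower at 3 (edgeR quasi-likelihood test, Benjamini-Hochberg adjusted p under 0.05). The same test called 24.5% of 16389 windows higher and 26.5% lower. The median log2 ratio was 0.70 for the 65 genes and 0.01 for all tested windows. All 68 passed the low-count filter of the ChIP libraries, while EIF4E3, EIF2S3B and EIF4E1B had too few input counts to be tested. The ratio ranks windows relative to those that the scaling centres on and is no absolute enrichment. Among the 44 tested genes whose window overlaps no other, 24 were higher. Scaled on olfactory receptor windows, 62 were higher and 0 lower, and so were 10186 and 164 of all 16389 windows. When windows needed a mean count of 50, which left 50 of the genes, 11 were higher, against 931 of 6453 windows. With the DMSO libraries alone, 19 were higher and 0 lower, against 1752 and 537 of 20489 windows. Without Nutlin3a replicate 1 there were 34 higher, against 3518 of 15497 windows.

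EIF4A2 and EIF4A1 encode the DEAD-box helicases that unwind the capped end of mRNAs. EIF4A2 had 245, 279 and 352 CPM (lowest, median and highest of 6 ChIP libraries, scaled with the inputs), against 0, 48.0 and 72.0 CPM in the 8 inputs, a log2 ratio of 2.76 ± 0.28 (SE; adjusted p = 1.26e-08 by edgeR's quasi-likelihood test). EIF4A1 had 322, 398 and 468 CPM in ChIP, against 47.9, 57.4 and 97.0 CPM in inputs, a log2 ratio of 2.70 ± 0.20 (adjusted p = 7.43e-11 by the same edgeR test). For both genes every ChIP library was above every input. EIF4A3, the exon junction helicase, was at 1.44 ± 0.19 (edgeR adjusted p = 7.98e-07). EEF1A1, which brings aminoacyl-tRNA to the ribosome, had 388, 449 and 536 CPM in ChIP, against 20.5, 70.1 and 148 CPM in inputs, a log2 ratio of 2.59 ± 0.23 (edgeR adjusted p = 8.91e-10). EEF2, the translocase, had 153, 162 and 198 CPM in ChIP, against 0, 30.1 and 66.8 CPM in inputs, a log2 ratio of 2.45 ± 0.30 (edgeR adjusted p = 3.26e-07). EIF1, which guards start codon choice, had 287, 306 and 389 CPM in ChIP, against 57.8, 62.2 and 103 CPM in inputs, a log2 ratio of 2.21 ± 0.19 (edgeR adjusted p = 3.35e-10). ChIP and input did not overlap at these 3 genes either. Input counts behind these values were as low as 0 to 12 per library, so the inputs set the precision. EEF1A1 has many processed pseudogenes elsewhere in the genome, and the read filters were not given, so its level is uncertain.

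**Figure D1:**
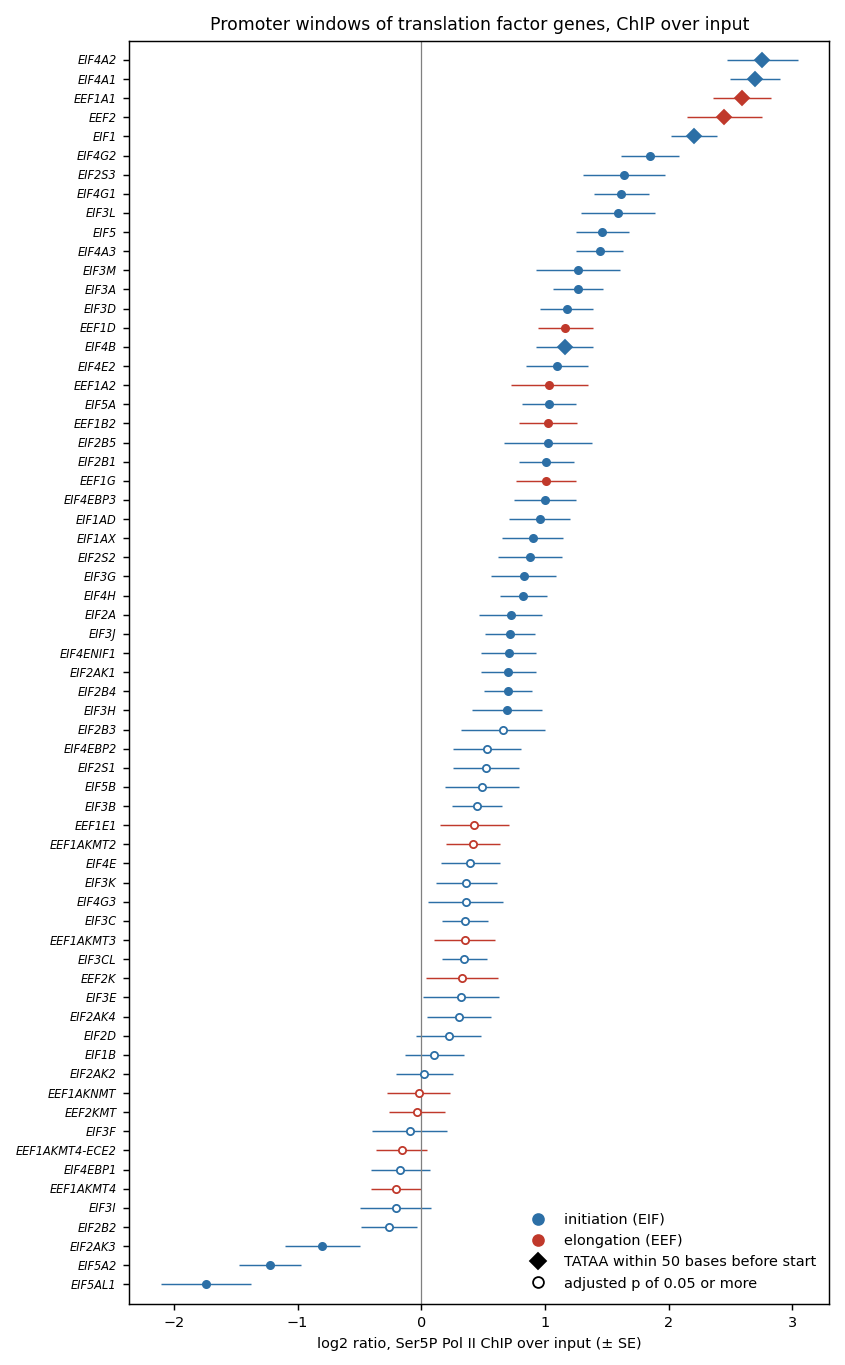
Log2 ratio of Ser5P Pol II ChIP over input (horizontal axis, ± SE from edgeR) for the 65 tested genes, with blue EIF, red EEF, diamonds for TATAA within 50 bases before the start and open points for an adjusted p of 0.05 or more. The 5 genes at the top, from EIF4A2 at 2.76 to EIF1 at 2.21, are all diamonds, and 3 genes at the bottom lie below 0 with filled points.

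All 6 genes with TATAA were higher in ChIP than in input, with a median log2 ratio of 2.52 and a range of 1.16 (EIF4B) to 2.76, against 21 of 45 genes without it and a median of 0.53. Over all NM_ genes tested with a promoter, 118 of 312 with TATAA (37.8%) and 25.6% of those without were higher, while the median log2 ratio was 0.04 with it and 0.10 without. TATAA was picked out with these ratios known, so the values only describe the 6 genes. Among genes with a TOP-like start, 8 of 11 tested were higher (median 1.18), against 19 of 40 without one (median 0.60). Over all NM_ genes the shares were 38.6% with such a start and 25.3% without. The other order was seen for CACGTG, with 5 of 15 higher (median 0.37), against 22 of 36 without it (median 0.81), and for CCAAT, with 9 of 22 higher (median 0.41), against 18 of 29 (median 0.90). Over all NM_ genes that order was absent for CACGTG, with 28.7% higher with it and 25.7% without. For CCAAT the shares over all NM_ genes were close, at 24.54% with it and 26.85% without. EIF4A1 and EIF1 had TATAA but no TOP-like start at the annotated first base. EIF3F and EIF2D, with TOP-like starts, had log2 ratios of −0.09 and 0.22 and were not called.

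By complex, 7 of 9 tested genes of the eIF4 group were higher, with a median of 1.16, where 24.5% of all windows were higher. EIF4G2, a relative of eIF4G without the contact to eIF4E, was at 1.85 ± 0.23, EIF4G1 at 1.62 ± 0.22 and EIF4B, a helicase cofactor, at 1.16 ± 0.23. EIF4B was not called with the DMSO libraries alone or with a mean count of at least 50. EIF4E was at 0.40 ± 0.24, with 57.6 to 77.8 CPM in ChIP, against 13.7 to 80.6 CPM in inputs, and was not called (edgeR adjusted p = 0.169). The groups overlapped at EIF4E. Of the scanning and subunit joining genes 3 of 5 were higher, with EIF5, which triggers GTP hydrolysis on eIF2, at 1.46 ± 0.21 and EIF5B, the joining GTPase, at 0.49 ± 0.30 and not called.

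For eIF2 and eIF2B, 5 of 8 genes were higher (median 0.79), where 24.5% of all windows were higher. EIF2S3, which encodes the gamma subunit, had 34.4, 46.7 and 52.3 CPM in ChIP, against 4.24, 15.2 and 20.6 CPM in inputs, with no overlap and a log2 ratio of 1.64 ± 0.33. EIF2S2 (beta) was at 0.88 ± 0.26 and called, and EIF2S1 (alpha), at 0.52 ± 0.27, was not. With the DMSO libraries alone EIF2S2, EIF2S3 and EIF2B5 were not called. With a mean count of at least 50, EIF2S2 (0.17) and EIF2B5 (0.32) were not called either. Of the eIF3 subunits, 7 of 14 were higher (median 0.57). EIF3L was highest at 1.59 ± 0.30 and EIF3A, the largest subunit, was at 1.27 ± 0.20. EIF3H, at 0.69 ± 0.29, lost its call in 5 of the 6 fits that left out a ChIP library, and EIF3E was at 0.32 ± 0.31. EIF3C and EIF3CL have nearly the same window and counts. Both windows lie within the RefSeq span of EIF3C (chr16:28688558-28735730), so 1 locus is counted under both names. The RefSeq span of EIF3CL, chr16:28379581-28426418, lies outside both windows.

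All 5 genes of the eEF1 complex were higher (median 1.04): EEF1A1, EEF1D at 1.17 ± 0.22, EEF1A2 at 1.04 ± 0.31, EEF1B2 at 1.03 ± 0.24 and EEF1G at 1.01 ± 0.24. Of all tested windows 24.5% were higher. EEF1A2 is known as the muscle and neuron form. With a mean count of at least 50, EEF1A2 (0.33), EEF1B2 (0.33), EEF1D (0.46) and EEF1G (0.31) were not called, and with the DMSO libraries alone EEF1A2 and EEF1B2 were not. EIF5A, now known as an elongation factor that carries hypusine, was at 1.03 ± 0.22, and was called under neither of these settings. EEF1E1, a protein of the tRNA synthetase complex despite its name, was at 0.43 ± 0.28 and not called.

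Of 14 kinases, binding proteins and methyltransferases named after the factors, 3 were higher (EIF4EBP3, EIF4ENIF1 and EIF2AK1) and 1 lower. Their median was 0.32, where 24.5% of all windows were higher and 26.5% lower. EIF4ENIF1 was not called with the DMSO libraries alone or with a mean count of at least 50 (0.0036). EEF2K, the kinase that inhibits eEF2, was at 0.33 ± 0.29, EIF2AK4 (GCN2, which senses amino acid lack) at 0.30 ± 0.26, EIF4EBP1 and EIF4EBP2, which sequester eIF4E, at −0.17 ± 0.24 and 0.53 ± 0.27. The 3 genes below input were EIF5AL1 (−1.74 ± 0.36), a copy of EIF5A, EIF5A2 (−1.22 ± 0.25), its tissue-restricted paralogue, and EIF2AK3 (−0.80 ± 0.30), the PERK kinase of the endoplasmic reticulum. At these 3 the range of the ChIP libraries overlapped that of the inputs. EIF2AK3 lost its call without DMSO replicate 2 and without either peptide library.

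Of all windows 24.5% were higher than input and 26.5% lower. Initiation factor genes had a median log2 ratio over input of 0.71 (29 of 51 higher, 3 lower) and elongation factor genes of 0.42 (6 of 14 higher, 0 lower). This order depended on which genes the symbols put in each class, since 7 of the 14 EEF genes encode methyltransferases, a readthrough of one or a kinase and EIF5A with its copies acts in elongation. Classed by role, 23 of 38 core initiation genes were higher and 0 lower (median 0.78). Of 9 core elongation genes 7 were higher and 2 lower (median 1.03). Median levels by symbol were 70.2 CPM for initiation (range 6.85 to 355) and 66.8 CPM for elongation (range 43.4 to 408), against 20.3 CPM over all tested windows. By role they were 83.2 CPM for core initiation and 115 CPM for core elongation genes.

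The highest mean levels over the 6 ChIP libraries were those of EEF1A1 (408 CPM), EIF4A1 (355), EIF1 (283), EIF4A2 (257) and EIF4A3 (255). EEF1A1 ranked 72 of 25901 windows. The lowest were EIF2S3B (6.85), EIF4E1B (7.18), EIF4E3 (9.92), EIF5AL1 (12.9) and EIF5A2 (27.4), against means of 0.288 to 6.90 CPM at the silent tissue genes. EIF2S3B, EIF4E1B and EIF4E3 were near that background.

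Levels within paralogue pairs are given as ratios of CPM. EEF1A1 was 4.54 to 9.13 times EEF1A2 (lowest and highest of 6 libraries, median 5.92). EIF1 was 4.23 to 6.41 times EIF1B, and EIF5A was 3.98 to 5.70 times EIF5A2. EIF4G1 was 1.88 to 2.83 times EIF4G3. In these 4 pairs the order held in every ChIP library. EIF4A1 and EIF4A2 were close, at 0.915 to 1.77, with EIF4A2 the higher in Nutlin3a replicate 1 alone. EIF4E was 3.85 to 11.1 times EIF4E3 and 4.53 to 19.4 times EIF4E1B, the form known from oocytes. EIF2S3 was 2.92 to 10.3 times EIF2S3B, and the ratio was 7.46 with Nutlin3a and peptide, against 10.3 with DMSO and peptide, and 2.92 and 2.95 with Nutlin3a, against 9.5 and 10.1 with DMSO. It rests on 7 to 20 counts of EIF2S3B per library. EIF2S3B had 9.94 and 12.0 CPM with Nutlin3a, against 4.82 and 4.64 CPM with DMSO, with an edgeR adjusted p of 0.982. Reads from such similar sequences could be split between the copies.

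**Figure D2:**
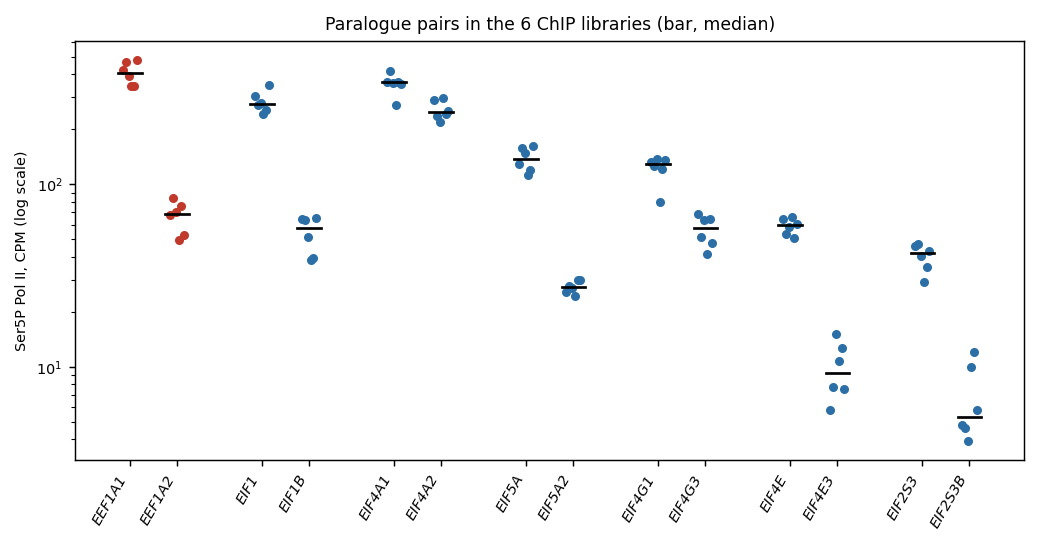
Levels in CPM (log axis) of 7 paralogue pairs in the 6 ChIP libraries, 1 point per library, with the median as a bar. The points of EEF1A1 lie above all points of EEF1A2, and those of EIF4A1 and EIF4A2 overlap.

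Genes that host a snoRNA in their span made up 9 of the 67 genes matched to RefSeq by symbol (13.4%), against 2.70% of 17894 NM_ genes. They were EEF1B2, EEF2, EIF2AK4, EIF3A, EIF4A1, EIF4A2, EIF4G1, EIF4G2 and EIF5. Over input 8 of the 9 were higher, with a median of 1.62, against 27 of 55 that host none and a median of 0.66. Of all tested windows 24.5% were higher. These hosts include EIF4A1, EIF4A2 and EEF2, which are among the genes with the highest ratios. Whether hosting goes with the level was not tested. Windows most often began 300 bases upstream of the start for genes on the plus strand and 700 bases upstream for those on the minus strand. Comparisons of level between genes carry this shift. Among tested genes at these placements, 50% of 22 on the plus strand and 50% of 16 on the minus strand were higher than input, against 25.3% and 26.2% of all tested windows so placed. The annotated start lay inside the counted window at 48 of the 54 genes with a promoter sequence, the exceptions being EIF3C, EIF3I, EIF4E3, EIF4G2, EIF4G3 and EIF5A.

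Nutlin3a against DMSO without peptide asked whether polymerase at these promoters shifts when p53 is released. In edgeR's quasi-likelihood test, adjusted by Benjamini-Hochberg over the 25901 tested windows, 0 of the 68 genes were higher and 0 lower. The background was 0.00772% of windows higher and 0% lower. At an unadjusted p under 0.05, 0 were higher and 3 lower, where the background was 1.27% higher and 1.05% lower. DESeq2 and limma-voom also called 0 of the 68. The 95% interval around a gene's log2 fold change reached 0.49 to either side at the median gene, a factor of 1.40. That width is not the limit of the adjusted test, in which the p53 target CDKN1A, at 1.39 ± 0.25, had an edgeR adjusted p of 0.109.

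EEF1A1 had 346 and 343 CPM with Nutlin3a, against 423 and 465 CPM with DMSO, and means of 344 ± 1.75 and 444 ± 29.4 CPM (SD, n = 2 each). Its log2 fold change was −0.37 ± 0.23 (edgeR adjusted p = 0.982). With peptide it had 480.4 CPM with Nutlin3a, against 393 CPM with DMSO. The groups without peptide did not overlap at EEF1A1, and the order was the other way with peptide. EEF2 had 139.9 and 141 CPM with Nutlin3a, against 141 and 163 CPM with DMSO, and 178 against 142 CPM with peptide. The replicate values of EEF2 nearly touched.

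EIF4A1 had 272 and 364 CPM with Nutlin3a, against 363 and 419.6 CPM with DMSO, and 352 against 359 CPM with peptide. EIF4A2 had 297 and 244 CPM with Nutlin3a, against 291 and 237 CPM with DMSO, and 253 against 219 CPM with peptide. Both helicase genes overlapped between the groups. EIF1 had 244 and 254 CPM with Nutlin3a, against 306 and 270.1 CPM with DMSO, and 348 against 277 CPM with peptide.

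EIF1B, the paralogue of EIF1, had the smallest unadjusted p. It had 38.2 and 39.6 CPM with Nutlin3a, against 64.1 and 63.9 CPM with DMSO, a log2 fold change of −0.72 ± 0.24 (unadjusted p = 0.00879, edgeR adjusted p = 0.982). With peptide it had 65.1 CPM with Nutlin3a, against 51.5 CPM with DMSO. The Nutlin3a libraries without peptide were the lowest of the 6. Over input EIF1B was at 0.11 ± 0.24 and not called (edgeR adjusted p = 0.730). Scaled with the inputs it had 44.7 to 72.7 CPM in ChIP, against 29.7 to 79.8 CPM in inputs, so the ranges overlapped. Its window overlaps that of the antisense gene EIF1B-AS1 and the counts carry no stated strand, so these cannot be told apart. EIF1AD, a nuclear protein related to eIF1A, had 86.4 and 77.4 CPM with Nutlin3a, against 113.8 and 113.9 CPM with DMSO (log2 fold change −0.48 ± 0.22). Its window overlaps that of BANF1. EIF2B5, the catalytic subunit of eIF2B, had 61.9 and 53.4 CPM with Nutlin3a, against 85.3 and 75.8 CPM with DMSO (−0.49 ± 0.22). At both genes the groups did not overlap and the adjusted p was 0.982 by edgeR's test.

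Among the others, EIF4G1 had 80.3 and 121 CPM with Nutlin3a, against 132 and 126 CPM with DMSO (−0.35 ± 0.24), and EIF5A had 112 and 119 CPM, against 129 and 159 CPM (−0.31 ± 0.22). EIF2AK3 was at 0.09 ± 0.37, EIF4EBP1 at −0.15 ± 0.27 and EIF4E at −0.02 ± 0.24. Medians by complex were −0.20 for eIF2 and eIF2B, −0.12 for eIF3, −0.21 for the eIF4 group and −0.27 for the eEF1 complex, and with the authors' constants 65 of the 68 genes lay above 0. Within eIF2, EIF2S3 was at −0.52 ± 0.28 and EIF2S2 at 0.07 ± 0.22. The eIF3 subunits ran from EIF3J at −0.38 ± 0.22, whose window overlaps that of EIF3J-DT, to EIF3A at 0.01 ± 0.23. The eEF1 genes ran from EEF1A1 to EEF1B2, at −0.05 ± 0.22. Both Nutlin3a libraries were below both DMSO libraries at 22 of the 68 genes (32.4%), against 15.7% of tested windows, and above both at 4 (5.88%), against 16.1%. The 4 were EIF2S3B, EIF4E1B, EIF4E3 and EIF4EBP2, the first 3 with mean levels under 10 CPM.

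The median log2 fold change was −0.13, with 52 of 68 below 0, against 0.04 over all tested windows. It was −0.21 at the 35 genes higher than input, against −0.20 at all 4015 windows higher than input. In replicate 1 the median was −0.25 and in replicate 2 −0.05, and without Nutlin3a replicate 1 the fitted median was −0.12. It was −0.22 without DMSO replicate 2, −0.064 with total counts. Under the filter at a mean count of 50 it was −0.0042, where 31 genes lay above 0 and 33 below. The direction depended on the scaling. With the authors' constants, which multiply Nutlin3a replicate 1 by 1.82 and the other ChIP libraries by 0.595 to 0.748, it was 0.36, against 0.53 over all tested windows. Initiation factor genes had a median of −0.15 and elongation factor genes of −0.11, and the difference of −0.04 became 0.17 without DMSO replicate 1. Classed by role the order was the other way, at −0.17 for core initiation and −0.27 for core elongation genes.

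**Figure D3:**
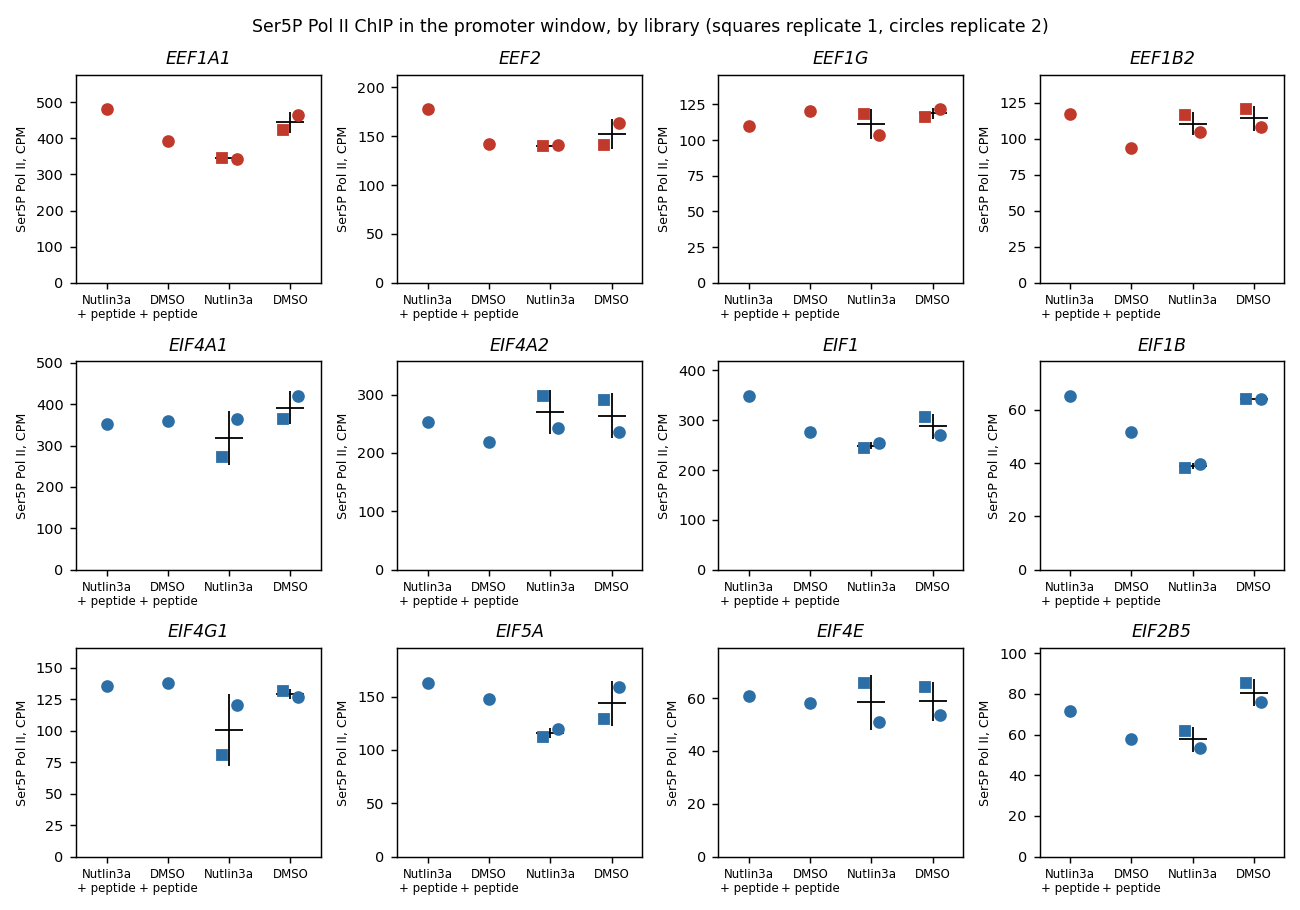
Ser5P Pol II level (CPM) of 12 genes in the 6 ChIP libraries, by group, with squares for replicate 1, circles for replicate 2 and bars for mean ± SD of the 2 libraries without peptide. EIF1B is lowest in the 2 Nutlin3a libraries without peptide, at 38.2 and 39.6 CPM.

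The peptide comparisons asked whether blocking p53 from Mediator changes these promoters or their response. With Nutlin3a, peptide against no peptide gave 0 genes higher and 0 lower (background 0% and 0%, edgeR's quasi-likelihood test). At an unadjusted p under 0.05, 1 was higher (background 0.564%) and 0 lower (background 1.88%). The 1 was EIF1B, at 0.74 (unadjusted p = 0.0185). The next largest by p were EIF5A and EIF1, both at 0.49, and on the lower side EIF4E1B, near background, was at −1.67 and EIF4ENIF1, a shuttling protein that binds eIF4E, at −0.37. The median was 0.14, against −0.02 over all windows and 0.12 at windows higher than input. It was 0.066 without Nutlin3a replicate 1 and −0.16 (−0.33 over all windows) with the authors' constants. With DMSO the peptide also gave 0 genes in either direction (background 0% and 0%), and 0 at an unadjusted p under 0.05 (background 0.687% and 0.83%), with a median of −0.08. That median was 0.0024 without DMSO replicate 1, with 34 genes above 0 and 34 below, and −0.13 without DMSO replicate 2. There EIF2A, an alternative carrier of initiator tRNA, was at −0.52, EIF2B5 at −0.48 and EIF3J at −0.41, while EIF4E3, near background, was at 1.16, EIF3D, a cap-binding eIF3 subunit, at 0.35 and EIF3G at 0.29. Each peptide group was 1 library, assumed to vary like the pairs. Both peptide ChIP libraries are labelled replicate 2, while the groups without peptide hold replicates 1 and 2. Within replicate 2, untested, the median log2 ratio of peptide over none was 0.07 with Nutlin3a, with 41 genes above 0 and 27 below. With DMSO it was 0.0019, with 34 above and 34 below. DESeq2 and limma-voom called 0 genes in both of these comparisons.

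The Nutlin3a response with peptide minus that without it was called at 0 genes in either direction (background 0% and 0%, edgeR's test), and DESeq2 and limma-voom called 0 too. At an unadjusted p under 0.05 it was higher at 1 (background 0.413%), EIF1B, at 1.05, and lower at 0 (background 0.641%). The next smallest p-values on the higher side were those of EIF2B5, at 0.80, and EEF1A1, at 0.66, while EIF2AK3 was at 0.96 (unadjusted p = 0.152). The 95% interval reached 0.84 to either side at the median gene, a factor of 1.79. The median difference was 0.18, against −0.01 over all windows and 0.22 at windows higher than input, and 0.08 without Nutlin3a replicate 1. With a mean count of at least 50 it was 0.039, with 35 genes above 0 and 29 below. With peptide alone, 1 Nutlin3a library against 1 DMSO library gave a median log2 ratio of 0.04, untested, with 0.08 for initiation and −0.09 for elongation factor genes. The comparisons share libraries, so their values are not independent. EIF4E1B and EIF4E3 had the most negative differences (−2.44 and −1.78), at levels near background.

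**Figure D4:**
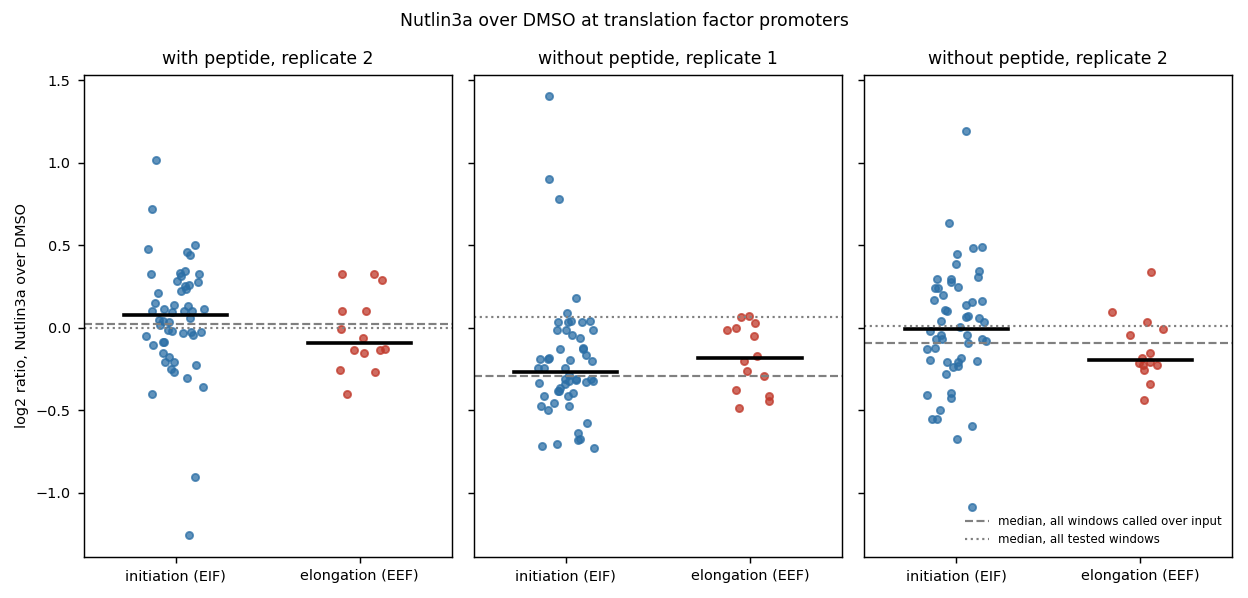
Log2 ratio of Nutlin3a over DMSO (vertical axis) for each initiation (blue) and elongation (red) factor gene with peptide and in each replicate without, with class medians as black bars and the medians of all tested windows and of all windows higher than input as lines. In replicate 1 most points lie below 0 (54 of 68), in replicate 2 38 of 68.

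**Figure D5:**
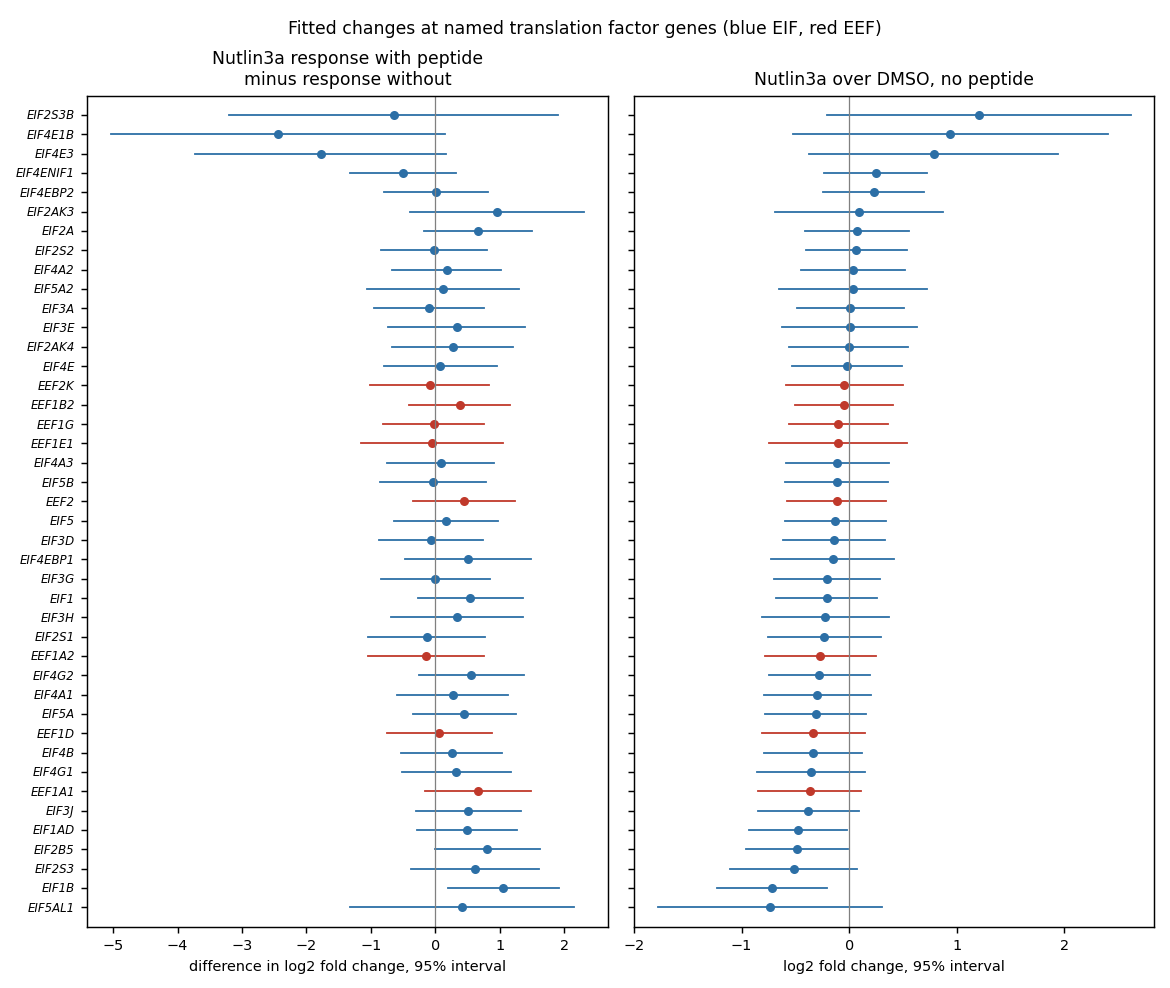
Fitted log2 values with 95% intervals for the named genes, for the Nutlin3a response with peptide minus that without (left) and for Nutlin3a over DMSO without peptide (right). Most intervals include 0, and EIF1B is at 1.05 for the difference of responses and at −0.72 for Nutlin3a over DMSO.

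Of 12 genes for termination, recycling and poly(A) binding, 10 could be tested over input, 6 were higher and 1 lower, where 24.5% of all windows were higher and 26.5% lower. PABPC1, the main cytoplasmic poly(A)-binding protein, was at 1.91 ± 0.23 over input. Of 22 genes in the tRNA synthetase list, which also holds AIMP1 and AIMP2, 12 were higher, among them AIMP2 and IARS, the latter at 1.21 ± 0.24. Of 9 mitochondrial translation factor genes 3 were higher, and of 12 genes of translation control by signalling 6 were higher and 1 lower. For Nutlin3a against DMSO, edgeR's test called 0 genes of these 4 lists, as did DESeq2 and limma-voom, and their medians were −0.21, −0.16, −0.21 and −0.11. The edgeR background was 0.00772% of windows higher and 0% lower. At an unadjusted p under 0.05, 2 tRNA synthetase list genes were lower, YARS at −0.66 ± 0.23 and AIMP2, a scaffold of the synthetase complex, at −0.49 ± 0.22. At that threshold 1.05% of all tested windows were lower.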

How the data were processed

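Ser5-phosphorylated RNA polymerase II was measured by ChIP-seq in 6 ChIP and 8 input libraries of HCT116 cells. The deposited table held raw read counts for 1 window at each gene's transcription start, on hg38 per the submitters' processing notes. A scaled signal column per ChIP library, named as such per the file headers, equalled the count multiplied by a fixed number for that library. How that number was derived, and which aligner, counter and filters were used, is not given in the sources used here. No sample column was left unused (0). Counts were tested in R 4.3.3 with edgeR 4.0.16 (glmQLFit and glmQLFTest, TMM, filterByExpr with minimum count 10, Benjamini-Hochberg over all tested windows, threshold 0.05), with 25901 windows in 4 group means of the 6 ChIP libraries and 16389 in the fit of assay (ChIP or input) and condition. Residual degrees of freedom were 2 and prior ones 14.7 in the ChIP fit, whose biological coefficient of variation was 26.0%. Scripts were tested on simulated data. Per-library log2 ratios used a prior count of 2. Genes were matched to RefSeq by symbol (67 of 68, and 54 with a promoter). Alternatives were DESeq2 1.42.0, limma-voom (limma 3.58.1), other scalings and filters, the replicate block and leaving out each ChIP library. The rule for names took 28 member genes and EIF6 whatever their values, the 3 smallest p-values in each direction of each comparison and the 5 highest and 5 lowest levels. Further genes were named after their values were seen. The members, lists and motifs were chosen with earlier results of these data known. In all, 22 of the 68 windows (32.4%) overlap another gene's, and reads there count for both. Windows overlapping EIF3C with EIF3CL, EIF1B with EIF1B-AS1, EIF2AK3 with EIF2AK3-DT, EIF3J with EIF3J-DT, and EEF1AKMT4 with EEF1AKMT4-ECE2 are uncertain for that reason.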

Additional observations from a re-analysis of the deposited data

How the results depend on the processing

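For Nutlin3a against DMSO, for the peptide under either treatment and for the difference between responses, no alternative listed called any of the 68 genes (0 in each). Median log2 values moved with the authors' constants to 0.36 for Nutlin3a against DMSO, −0.16 and −0.32 for the peptide with Nutlin3a and with DMSO, and 0.45 for Nutlin3a against DMSO with peptide. A mean count of at least 50 gave 0.048 for the peptide with Nutlin3a. The number higher in ChIP than in input was 19 with the DMSO libraries alone, 11 with a mean count of at least 50 and 62 with olfactory receptor scaling. The number lower was 0 with the DMSO libraries alone and 0 with olfactory receptor scaling. The median over input was 1.1, 0.19 and 1.91 under these 3 settings and 0.57 with total counts, and 0.65 to 0.80 when 1 ChIP library was left out. EIF2AK3 and EIF4EBP1 were at 0.39 and 0.99 over input with olfactory receptor scaling, the other way from the main values. The cause was not tested.

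Initiation minus elongation medians shifted in sign with the setting. Over input the difference of 0.28 was −0.14 with a mean count of at least 50, −0.0093 when only windows without overlap were fitted, −0.0081 over the genes without window overlap and −0.26 by role, and 0.22 to 0.47 when 1 ChIP library was left out. For the peptide with Nutlin3a it was −0.052 by role and −0.067 to 0.031 when 1 of the 2 Nutlin3a libraries without peptide was left out, and for the difference between responses −0.13 by role and −0.061 to 0.19 when 1 of the 4 libraries without peptide was left out. For Nutlin3a against DMSO it was −0.16 to 0.17 when 1 of those 4 was left out.

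Replicate numbers are shared by the labels, which do not say what a number stands for, and only 2 pairs exist. Replicate differences of DMSO and Nutlin3a had a Pearson correlation of 0.454 over 25901 windows. With the replicate block 0 genes were called for Nutlin3a against DMSO (median −0.13), against 39 higher and 0 lower of all 25901 windows. The biological coefficient of variation was 13.6% with the block, on 1 residual degree of freedom, and 26.0% without it. Initiation minus elongation was −0.0079 for the peptide with Nutlin3a under the block. Over input 35 were higher and 2 lower with the block, against 3960 and 4290 of all 16389 windows. Input depth of 161719 to 359276 counts limits the ratios over input.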

Other observations

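Values just outside the rule were as follows. EIF6, which keeps ribosomal subunits apart, had 102 CPM with Nutlin3a and peptide, 97.4 CPM with DMSO and peptide, 69.6 and 67.8 CPM with Nutlin3a and 82.0 and 82.5 CPM with DMSO. Its log2 ratio over input was 0.63 ± 0.21 (edgeR adjusted p = 0.0145) and its log2 fold change with Nutlin3a −0.26 ± 0.21 (SE, edgeR adjusted p = 0.982). EEF1AKMT1, a methyltransferase of eEF1A, was at 1.74 ± 0.27 over input. EEFSEC, the selenocysteine elongation factor, was at 0.20 ± 0.27 over input and not called. EEF1DP3, a pseudogene of EEF1D, had a mean of 14.0 CPM and was lower than input, at −1.30 ± 0.33. EIF3IP1, a pseudogene of EIF3I, and EIF1AX-AS1 had means of 2.08 and 0.798 CPM.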
